A study of Mus musculus with 2 samples.

Results

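The clustered histone genes are the genes of the Hist1, Hist2 and Hist3 clusters of the mouse genome, which encode the linker histone H1 and the core histones H2A, H2B, H3 and H4. They were taken by symbol, as every feature whose name begins with Hist1h, Hist2h or Hist3h, which gave 66 of the 32287 features of the deposited matrices. There were 6 linker genes and 60 core genes, of which 18 encode H2A, 18 H2B, 12 H3 and 12 H4. The set as a whole was selected on measured values of these same libraries, in which it was higher in the shBicd2-labelled library and in barcodes with reporter RNA, so both of those differences are given as a description and carry no test. RNA was counted per barcode in the livers of wild-type C57BL/6J mice, in a library labelled shBicd2 and a library labelled scramble, 1 library each. At 4 weeks of age these animals had been given an adeno-associated virus with a hairpin against Bicd2, an adaptor of the dynein motor, or a scrambled hairpin. After 3 weeks every animal was given 15 mg/kg of the plant lectin concanavalin A by vein, which causes T cell-driven liver injury, and livers were taken 6 h after that. The number of mice behind a library, the promoter and serotype of the vector and the source of its EGFP are not given in the sources used here, and no mice without concanavalin A are analysed here.

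Most clustered histone genes are replication-dependent: they have no introns, are transcribed while DNA is copied, and their messenger RNA ends just after a short stem-loop in place of a poly(A) tail. A stem-loop binding protein holds that end, and the RNA is degraded when DNA synthesis stops. Some of these genes can also make a longer RNA that runs past the stem-loop and is polyadenylated, a form known from differentiated, non-dividing cells. The library kit used here primes on poly(A), so it captures the longer form readily and the stem-loop form only where it carries some poly(A) or a stretch of A.

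The stem-loop itself is printed for 10 members of all 5 histone types, which show 5 of its 8 forms, because the 2 RNA forms differ in whether the RNA goes on after it. In the annotated transcripts of GRCm38, 45 of the 66 members held a stem-loop of 16 bases with 6 pairs, in 8 forms, while 10 of 58726 other coding transcripts (0.0170%) matched one. The stem-loop is in capitals with 5 bases on each side in lower case, as DNA letters read 5′ to 3′ on the gene's strand. The linker genes Hist1h1e, Hist1h1c and Hist1h1d shared the form held by 26 members, and the 4 H4 genes shown had forms with more G and C in the stem.
Hist1h1e: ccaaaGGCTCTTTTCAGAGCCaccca
Hist1h1c: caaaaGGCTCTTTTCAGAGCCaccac
Hist1h1d: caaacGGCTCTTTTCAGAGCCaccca
Hist2h2aa1: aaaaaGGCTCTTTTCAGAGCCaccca
Hist1h2bb: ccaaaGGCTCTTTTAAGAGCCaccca
Hist1h3a: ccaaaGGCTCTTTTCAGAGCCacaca
Hist1h4c: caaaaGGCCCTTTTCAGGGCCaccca
Hist1h4d: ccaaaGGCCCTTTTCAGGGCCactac
Hist1h4i: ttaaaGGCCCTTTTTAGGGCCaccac
Hist1h4a: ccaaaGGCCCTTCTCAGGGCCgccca

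The annotated RNA ran more than 100 bases past the stem-loop in 22 members, ended within 100 bases of it in 23, and held none of these letters in 21. Several of the 21 are annotated as short RNAs, such as Hist1h4k with 312 bases and Hist1h2bn with 381 bases, which may stop before a stem-loop. This class therefore describes the annotation and does not show that its genes lack the stem-loop. A poly(A) signal (AATAAA or ATTAAA) lay in the last 50 bases of 11 of the 22 that ran past, of 1 of the 23 that ended near and of 3 of the 21 without. The annotated Hist1h1e RNA continued for 1153 bases after the stem-loop and that of Hist1h1c for 840 bases. Among H4 genes, Hist1h4c continued for 454 bases and Hist1h4i for 330 bases. In GENCODE coordinates of GRCm38, 54 members lie on chromosome 13, 10 on chromosome 3 and 2 on chromosome 11. Hist1h1e spans chr13:23620629-23622558 and Hist1h4c chr13:23697635-23698454, both as 1 exon on the minus strand. Hist1h2bc spans chr13:23684199-23692908 on the plus strand. Hist1h2bc, the H2B gene with the most UMIs, and Hist1h2br were annotated with 2 exons and without the stem-loop.

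Promoters are shown for a linker and an H4 gene, since genes of both kinds lead the set. RefSeq promoters (GRCm38.p6, 250 bases before to 50 after the start) were matched for 60 members, and letters were searched on both strands. The first is at chr13:23622509-23622808 and the second at chr13:23698409-23698708, both on the minus strand, and capitals mark the TATA box (TATAAA), the CCAAT box, spelled as named, and the H1 box of linker genes (AAACACA).
Hist1h1e: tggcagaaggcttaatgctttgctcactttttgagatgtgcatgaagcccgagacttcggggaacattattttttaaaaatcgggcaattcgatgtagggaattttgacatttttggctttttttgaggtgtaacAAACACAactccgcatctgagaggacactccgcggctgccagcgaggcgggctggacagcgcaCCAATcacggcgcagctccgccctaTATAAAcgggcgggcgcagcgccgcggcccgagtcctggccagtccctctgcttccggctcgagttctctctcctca
Hist1h4c: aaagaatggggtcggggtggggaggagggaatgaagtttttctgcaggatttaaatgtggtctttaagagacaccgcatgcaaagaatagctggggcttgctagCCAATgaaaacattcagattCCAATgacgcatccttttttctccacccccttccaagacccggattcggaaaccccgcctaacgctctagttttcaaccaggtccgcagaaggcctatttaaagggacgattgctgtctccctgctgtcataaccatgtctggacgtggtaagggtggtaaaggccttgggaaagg

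The CCAAT letters were in 86.7% of member promoters, against 37.3% of the 32790 other promoters, and in 27.3% of H4 promoters alone. TATAAA was in 58.3% of member promoters, against 13.5% of the others. The H1 box was in 5 of 6 linker promoters, against 7.17% of other promoters, and the octamer ATTTGCAT, known from H2B promoters, was in 21.7% of member promoters, against 1.70%. The octamer was found in 41.2% of H2A and 37.5% of H2B promoters. The heat shock element, searched because heat shock genes lead a cluster described further on, was in 3 of 60 member promoters (5.0%), against 0.595% of others. Of these, Hist1h2ad and Hist1h2bf start close together on opposite strands, at 23574381 and 23574196 of chromosome 13, so 1 site may count for both. These are counts of letters in a window and do not show binding.

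The libraries were close in depth, with 5624055 UMIs in 3038 barcodes of the shBicd2-labelled library and 5086306 UMIs in 2805 barcodes of the scramble-labelled library, where a UMI marks 1 captured RNA molecule. Filters left 2941 and 2729 barcodes (median 1495 and 1502 UMIs), and 3 barcode sequences occurred in both libraries. Bicd2 had 106 UMIs (19.6 CPM, counts per 1000000 UMIs) in the shBicd2-labelled library and 83 (16.9 CPM) in the scramble-labelled library, so the targeted RNA was not lower and the libraries are called by their labels throughout. EGFP RNA was found in 806 (27.4%) and 169 (6.19%) kept barcodes. Clustering without the member genes and EGFP gave 16 clusters, of which 6 took a cell type name, cluster 9 was set apart as mixed and the other 9 are called the main population, with 2450 and 2193 barcodes. All 12 hepatocyte markers were detected in it, as the label of liver implies. With 1 library a group there is no test between groups, and every interval is at 95% and covers counting error only. Each UMI marks 1 captured molecule, so levels were not divided by gene length.

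Clustered histone RNA was 2.33 times as abundant in the shBicd2-labelled library (interval 2.27 to 2.40). The 66 genes summed to 16519 UMIs at 3052 CPM (3005 to 3099) in the shBicd2-labelled library and to 6411 UMIs at 1308 CPM (1276 to 1340) in the scramble-labelled library. The ratio was higher for linker than for core genes, and within the core it was highest for H2B and lowest for H3 and H4. Of the 49 members with at least 10 UMIs over both libraries, 39 were more than 1.5-fold higher in the shBicd2-labelled library, beside 26.2% of the 12945 features with as many UMIs. None of the 49 was more than 1.5-fold lower, beside 12.0% of features. The median ratio was 2.31 over these members and 1.11 over all such features. Leaving out every barcode with an EGFP UMI left a ratio of 1.31. Fewer cells with histone RNA and less histone RNA in each cell cannot be told apart in such sums, and the values by barcode follow further on.

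**Figure D1:**
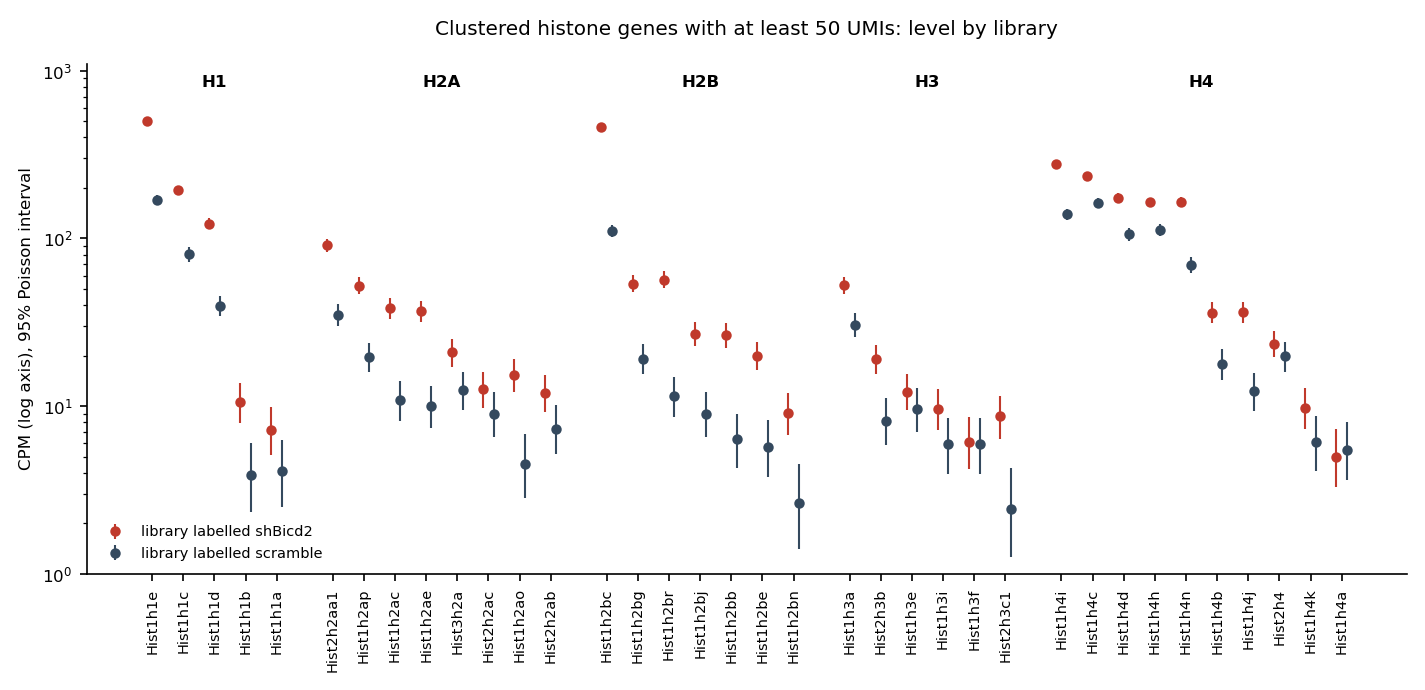
Level of each clustered histone gene with at least 50 UMIs over both libraries, in CPM on a log axis, by library, with 95% Poisson intervals (counting error only, 1 library a group). The 36 genes are grouped by histone type and ordered by UMIs, and 35 of them lie higher in the shBicd2-labelled library, the exception being Hist1h4a at 4.99 against 5.51 CPM.

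The linker histones H1, which bind DNA where it enters and leaves the nucleosome, summed to 832 CPM (808 to 856) in the shBicd2-labelled library and 297 CPM (282 to 313) in the scramble-labelled library, a ratio of 2.80 (2.64 to 2.97). Their share of member UMIs was 27.3% (26.6% to 27.9%) in the shBicd2-labelled library and 22.7% (21.7% to 23.8%) in the scramble-labelled library. The linker genes therefore took a larger part of the histone RNA in the shBicd2-labelled library. The intervals do not overlap, but they cover counting error only, with 1 library a group. Hist1h1e led all members, with 498 CPM (479 to 517) in the shBicd2-labelled library against 169 CPM (158 to 181) in the scramble-labelled library, a ratio of 2.94 (2.72 to 3.18). Hist1h1c had 194 against 80.2 CPM, a ratio of 2.42 (2.15 to 2.72). Hist1h1d had 122 against 39.6 CPM, a ratio of 3.09 (2.63 to 3.64). These are the H1 genes known for abundant RNA in tissues that hardly divide. Hist1h1a and Hist1h1b, known for RNA that is largely limited to dividing cells, were low, at 7.20 against 4.08 CPM for Hist1h1a and 10.5 against 3.88 CPM for Hist1h1b. Their ratios were 1.77 (1.01 to 3.20) and 2.72 (1.59 to 4.84).

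H2A, which pairs with H2B in the nucleosome, summed to 294 CPM in the shBicd2-labelled library and 114 CPM in the scramble-labelled library, a ratio of 2.58 (2.34 to 2.85). Hist2h2aa1 was the leading H2A gene, at 91.3 CPM (83.4 to 99.7) against 34.9 CPM (29.8 to 40.5), a ratio of 2.62. Its copy Hist2h2aa2 shares all of its 60-base stretches with other members and had 1 UMI, so reads of the pair may not be divided correctly. Hist2h2aa1 also overlaps Gm20634 by 529 bases on the same strand. Hist1h2ap, with 92.9% of its 60-base stretches in other members, had 52.3 against 19.6 CPM, and Hist1h2ac 38.2 against 10.8 CPM. Hist1h2ae had 36.8 against 10.0 CPM, the highest ratio among the named H2A genes at 3.68 (2.68 to 5.14). Hist1h2ao, with 93.3% of such stretches shared, had 15.3 against 4.49 CPM, and Hist2h2ab 12.0 against 7.34 CPM. For Hist2h2ac, at 12.6 against 8.98 CPM, the interval of 0.944 to 2.09 included 1. Hist3h2a had 20.9 against 12.4 CPM, but its annotated gene lies on the same strand as Trim17 over 2146 bases, so its UMIs are uncertain.

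H2B differed most between the libraries. The H2B genes summed to 680 CPM (659 to 703) in the shBicd2-labelled library and 176 CPM (164 to 188) in the scramble-labelled library, a ratio of 3.87 (3.59 to 4.17), and held 22.3% and 13.5% of member UMIs. Hist1h2bc alone had 458 CPM (440 to 477) against 111 CPM (102 to 120), a ratio of 4.14 (3.77 to 4.55), and was found in 27.7% against 12.7% of barcodes. Thinned to 1000 UMIs a barcode, which left out 850 and 753 shallower barcodes, those shares were 23.6% and 7.95%. Hist1h2br had the highest ratio of all named members, 4.97 (3.72 to 6.73), at 56.7 against 11.4 CPM, but 99.8% of its 60-base stretches occur in other members. Hist1h2bg had 53.8 against 19.2 CPM, Hist1h2bj 27.0 against 8.98 CPM and Hist1h2bb 26.4 against 6.32 CPM. Hist1h2be, which overlaps Hist1h1e by 496 bases on the same strand, had 19.95 against 5.71 CPM. Those bases are the 3′ end of the annotated Hist1h1e RNA, so UMIs of either gene may not be divided correctly. Hist1h2bn, with 82.9% of its 60-base stretches in other members, had 9.05 against 2.65 CPM. All 7 named H2B genes had ratios of 2.80 or more, with intervals above 1.

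H3, whose tail carries many of the marks of active and silent chromatin, was the scarcest type, at 116 CPM in the shBicd2-labelled library and 67.1 CPM in the scramble-labelled library, a ratio of 1.73 (1.51 to 1.98). Hist1h3a led it with 52.5 against 30.4 CPM, a ratio of 1.73 (1.41 to 2.12). Hist2h3b had 19.0 against 8.16 CPM and Hist1h3i 9.61 against 5.92 CPM, with 79.3% and 84.4% of their 60-base stretches in other members. Hist1h3e, at 12.2 against 9.59 CPM, and Hist1h3f, at 6.1 against 5.92 CPM, had intervals that included 1. With TMM factors in place of total UMIs, which lower every ratio alike (a shift of -0.16 on the log2 scale), Hist1h3f lay below 1. Hist2h3c1 had 8.68 against 2.45 CPM, a ratio of 3.55 (1.85 to 7.35). Its annotated gene lies on the same strand as Gm20634 over 1825 bases, so its UMIs are uncertain.

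H4, the partner of H3, supplied the most histone RNA, 1130 CPM (1102 to 1159) in the shBicd2-labelled library and 654 CPM (631 to 677) in the scramble-labelled library, a ratio of 1.73 (1.66 to 1.80). Its share of member UMIs was 37.0% in the shBicd2-labelled library and 49.99% in the scramble-labelled library, the reverse of the H2B and linker shares. Hist1h4i had 279 CPM (265 to 293) against 139 CPM (129 to 150), a ratio of 2.01 (1.83 to 2.20). Hist1h4c had 236 CPM (223 to 249) against 163 CPM (152 to 175), a ratio of 1.45 (1.32 to 1.58). In the scramble-labelled library Hist1h4c was the second member after Hist1h1e, while in the shBicd2-labelled library it stood behind Hist1h1e, Hist1h2bc and Hist1h4i. Hist1h4d had 174 against 106 CPM and Hist1h4h 164 against 112 CPM. Hist1h4n, with 85.2% of its 60-base stretches in other members, had 164 against 69.6 CPM. Hist1h4b had 36.0 against 17.7 CPM and Hist1h4j 36.4 against 12.2 CPM. Hist2h4 had 23.5 against 19.8 CPM, with an interval that included 1. Hist1h4k, with 70.0% of such stretches shared, had 9.79 against 6.12 CPM. Hist1h4a was the lowest, with 27 UMIs in each library and a ratio of 0.906 (0.511 to 1.60).

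Over the 36 genes with at least 50 UMIs the median ratio was 2.39. Another 27 members had 1 to 49 UMIs, 296 in the shBicd2-labelled library and 118 in the scramble-labelled library in all, and 21 of them were higher in the shBicd2-labelled library. Only 3 members (Hist1h2aa, Hist1h2ah and Hist1h2ba) had no UMI, which allows up to 3 counts each as a one-sided limit. The 4 leading members held 48.2% and 44.6% of member UMIs.

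By the annotated end of the RNA, members that ran past the stem-loop held most of the UMIs, 58.1% (57.4% to 58.9%) in the shBicd2-labelled library and 62.5% (61.3% to 63.7%) in the scramble-labelled library. Members that ended near the stem-loop held 22.0% and 24.8%, and members without its letters 19.9% and 12.8%. The last class had the highest ratio, 3.64 (3.37 to 3.94), against 2.17 (2.09 to 2.25) and 2.07 (1.95 to 2.20) for members that ran past or ended near. Hist1h2bc supplied most UMIs of that class. By gene the order was another, with a median ratio of 2.33 over the 9 named members without the letters, against 2.42 over the 17 that ran past and 2.49 over the 10 that ended near. The UMI counts do not show where on an RNA it was primed, so the 2 forms of a gene were not counted apart.

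The histone RNA was concentrated in 2 clusters of the main population, which were singled out after their levels were seen. Clusters 2 and 4 held 87.1% of member UMIs in 24.99% of barcodes of the shBicd2-labelled library, and 79.5% in 24.0% of barcodes of the scramble-labelled library. Cluster 4 came nearly whole from the shBicd2-labelled library, with 630 barcodes against 15, and was led by Hspb1, EGFP, Ccn1, Hist1h2ao, Hist1h2ac and the heat shock genes Hspa1a and Hspa1b. Its member level in the shBicd2-labelled library was 7994 CPM (7856 to 8134), with a median of 6313 CPM a barcode. Cluster 2, led by the interferon-induced Ifit2, Ifit1 and Rsad2, held 105 against 641 barcodes, and its level was 6454 CPM (6142 to 6777) in the shBicd2-labelled library and 3246 CPM (3156 to 3339) in the scramble-labelled library. The rest of the main population had 541 CPM (515 to 568) and 301 CPM (280 to 322), a ratio of 1.80 (1.65 to 1.96). Within cluster 2 the ratio was 1.99, so a library difference was also present within that cluster.

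Leading members were higher in both clusters, to different degrees. Hist1h1e had 1391 CPM in cluster 4 and 1035 CPM in cluster 2 of the shBicd2-labelled library, against 52.2 CPM in the rest of its main population. It had 467 CPM in cluster 2 of the scramble-labelled library, against 17.5 CPM in the rest. Hist1h2bc was the leading member in the rest of the main population, at 96.7 and 35.1 CPM, and Hist1h1c stood at 62.8 and 33.6 CPM there. Hist1h4i had 719 CPM in cluster 4 and 775 CPM in cluster 2 of the shBicd2-labelled library, against 47.8 CPM in the rest. Hist3h2a, the gene overlapping Trim17, had 38.8 CPM in cluster 4 and 4.0 CPM in cluster 2 of that library, against 15.3 CPM in the rest. Linker genes made up 27.8% of member UMIs in cluster 4 and 26.4% in cluster 2 of the shBicd2-labelled library, and 23.2% in cluster 2 of the scramble-labelled library. Across 17 groups of barcodes (a cluster in a library, at least 50 barcodes) the log2 levels of linker and core genes had a Pearson r of 0.982, which describes clusters that share libraries and depth.

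**Figure D2:**
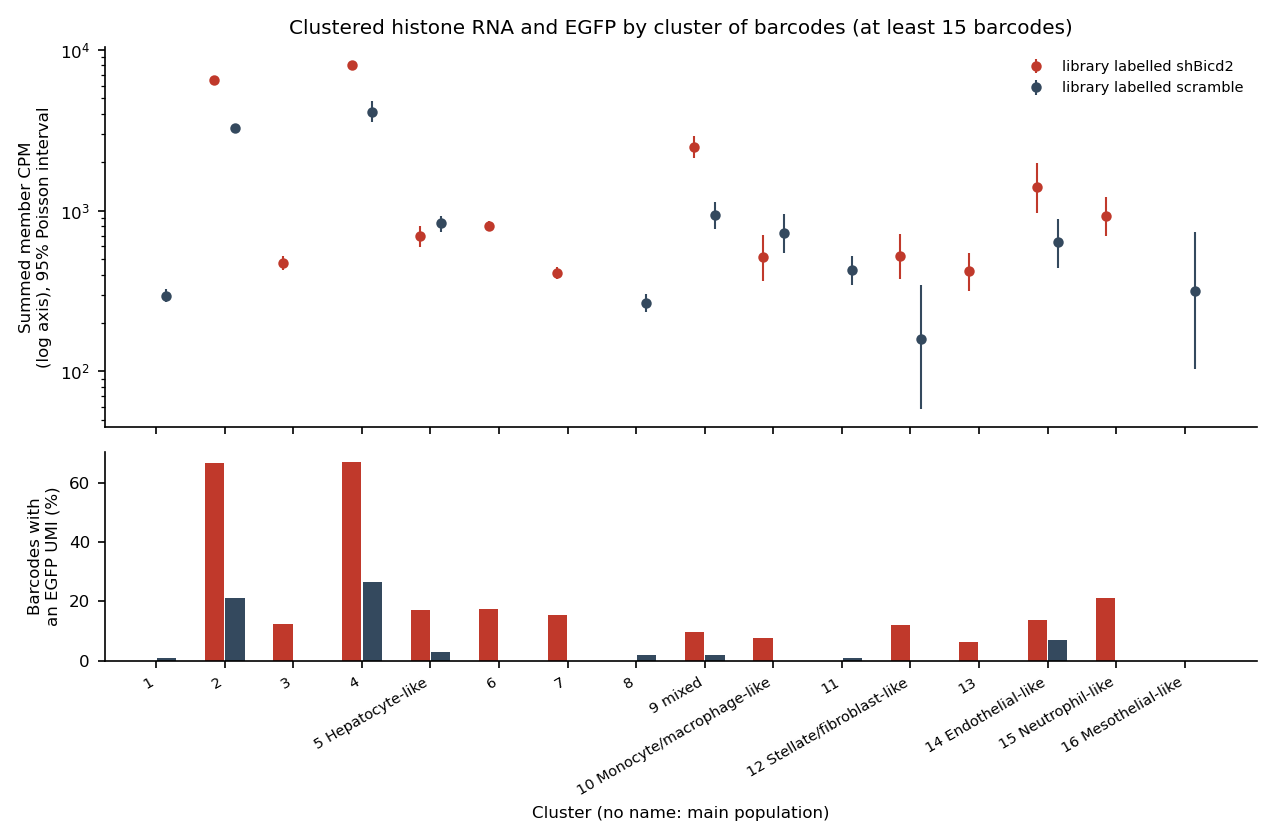
Summed CPM of the 66 clustered histone genes in each cluster and library with at least 15 barcodes (upper panel, log axis, 95% Poisson intervals) and the percent of those barcodes with an EGFP UMI (lower panel). Clusters 2 and 4 stand above the rest in both panels, at 6454 and 7994 CPM and 66.7% and 67.0% in the shBicd2-labelled library.

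Marker lists moved with these clusters too. Summed hepatocyte markers (12 of 12 detected) were 8894 and 8725 CPM in clusters 4 and 2 of the shBicd2-labelled library, against 18304 CPM in the rest, and 8249 CPM in cluster 2 of the scramble-labelled library, against 13691 CPM. Summed bile duct markers were 3837 and 3235 CPM in clusters 4 and 2 of the shBicd2-labelled library, against 1530 CPM, with Krt8 leading in both clusters and with the markers Krt7, Krt19, Epcam and Cftr at 0 in all of these. In cluster 2 of the scramble-labelled library they were 764 CPM, against 436 CPM. Barcodes of cluster 4 were deeper, with a median of 2207 UMIs, against 1489 UMIs in the rest of that library's main population. The part of these differences in the histone levels was not tested. Outside the main population, hepatocyte-like barcodes, which carry more mitochondrial RNA, had 692 CPM (593 to 802) and 832 CPM (741 to 931). Monocyte/macrophage-like barcodes had 514 and 724 CPM, endothelial-like 1408 and 634 CPM, and stellate/fibroblast-like 524 and 158 CPM, from 74 or fewer barcodes in the last.

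Histone RNA of many genes occurred in the same barcodes. At least 10 member UMIs were found in 450 barcodes (15.3%) of the shBicd2-labelled library and 202 (7.40%) of the scramble-labelled library, with up to 159 and 82 UMIs in a barcode. No member UMI was found in 39.2% and 52.5% of barcodes. The barcodes with at least 10 held a median of 11 and 9 different members, and 98.4% and 96.0% of them held both linker and core RNA. Since these barcodes were chosen by their member UMIs, holding several members and both kinds follows largely from the cutoff and is not a separate result. They were also deeper, with medians of 2917 and 3261 UMIs, against 1328 and 1413 UMIs in barcodes with fewer. Of these barcodes, 76.4% and 31.7% had an EGFP UMI.

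EGFP RNA and histone RNA were found in the same barcodes in both libraries. Among main population barcodes of the shBicd2-labelled library, the 738 with an EGFP UMI had 6254 CPM (6140 to 6369), against 1498 CPM (1454 to 1542) in the 1712 without, a ratio of 4.18 (4.03 to 4.32). In the scramble-labelled library the values were 3637 CPM in 156 barcodes, against 1139 CPM in 2037, a ratio of 3.19 (3.01 to 3.38). Of members with at least 10 UMIs there, 42 of 46 were more than 1.5-fold higher with EGFP in the shBicd2-labelled library, beside 10.4% of features, and 33 of 37 in the scramble-labelled library, beside 11.5%. Linker ratios were 4.50 (4.21 to 4.82) and 3.55 (3.15 to 4.00), and core ratios 4.06 (3.90 to 4.23) and 3.09 (2.89 to 3.3). Every histone type was higher with EGFP. Among core types the ratio was from 3.83 for H2A to 4.47 for H3 in the shBicd2-labelled library and from 2.66 for H2B to 3.23 for H4 in the scramble-labelled library. All 3 classes of RNA end were alike in this, at 4.14, 4.34 and 4.12 in the shBicd2-labelled library for members that ran past the stem-loop, ended near it or lacked its letters.

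By gene, the median of this ratio over the 36 named members was 4.33 in the shBicd2-labelled library and 3.11 in the scramble-labelled library. Hist1h1e had 1071 CPM with EGFP against 222 CPM without in the shBicd2-labelled library, and 567 against 139 CPM in the scramble-labelled library. Hist1h3a had 125 against 15.6 CPM in the shBicd2-labelled library, a ratio of 8.02 (5.84 to 11.2). Of the named members, Hist2h3c1 alone, whose UMIs are uncertain because it overlaps Gm20634, lay below 1 in the shBicd2-labelled library, at 0.547 (0.249 to 1.11). In the scramble-labelled library it had no UMI with EGFP, and Hist3h2a was at 0.738.

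The level followed the number of EGFP UMIs. With 0, 1, 2 and at least 3 EGFP UMIs it was 1498, 2787, 5299 and 9198 CPM in the shBicd2-labelled library, from 1712, 328, 95 and 315 barcodes. The scramble-labelled library had 1139, 2800, 4381 and 4632 CPM, from 2037, 83, 35 and 38 barcodes. The linker share rose a little along these steps in the shBicd2-labelled library: 25.8% (24.6% to 27.1%), 26.7%, 27.2% and 28.2% (27.2% to 29.2%). In the other library it was 22.2% (21.0% to 23.5%) with 0, 28.0% (24.5% to 31.7%) with 1, 21.9% with 2 and 23.1% with at least 3 EGFP UMIs, so it did not follow the level. Barcodes with EGFP were deeper, with medians of 2144 against 1501 UMIs and 2390 against 1613 UMIs. Within 4 ranges of barcode depth the ratio was 2.88 to 5.04 in the shBicd2-labelled library and 2.26 to 4.89 in the scramble-labelled library.

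**Figure D3:**
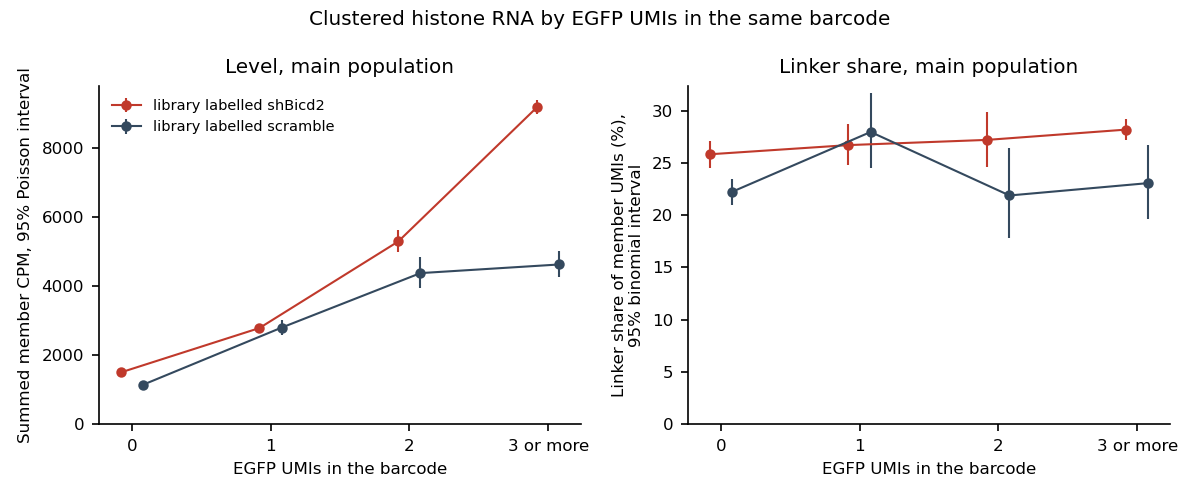
Summed CPM of the clustered histone genes (left, 95% Poisson intervals) and the linker share of their UMIs in percent (right, 95% binomial intervals) in main population barcodes with 0, 1, 2 and 3 or more EGFP UMIs, by library. The level climbs to 9198 CPM in the shBicd2-labelled library and to 4632 CPM in the scramble-labelled library, while the share lies between 21.9% and 28.2% with no such order in the scramble-labelled library.

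Within clusters the EGFP difference was far smaller. In cluster 4 of the shBicd2-labelled library the level was 8687 CPM with EGFP, against 6341 CPM without, a ratio of 1.37 (1.31 to 1.43). In cluster 2 the ratio was 1.37 (1.21 to 1.55) in the shBicd2-labelled library and 1.27 (1.19 to 1.35) in the scramble-labelled library, where the levels were 3864 and 3047 CPM. Barcodes of these clusters without a detected EGFP UMI thus had more histone RNA than the rest of the main population. Without clusters 2 and 4 the ratios were 1.20 (1.06 to 1.36) and 1.19 (0.646 to 2.0). In cluster 3 the ratio was 1.1 (0.803 to 1.48), in cluster 6 it was 1.30 (1.1 to 1.55) and in cluster 7 it was 0.893 (0.693 to 1.14), all in the shBicd2-labelled library. Outside the main population EGFP was found in 7.6% of monocyte/macrophage-like and 21.2% of neutrophil-like barcodes of the shBicd2-labelled library, which does not show that those cells made it.

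Mki67 and Top2a, which mark dividing cells, were rare and were mostly found elsewhere. A UMI of either was present in 47 barcodes (1.60%, 1.18% to 2.12%) of the shBicd2-labelled library and 31 (1.14%, 0.773% to 1.61%) of the scramble-labelled library, of which 13 and 12 lay in the main population. These barcodes held 2.06% and 1.05% of member UMIs. Mki67 had 6.84 and 3.67 CPM over all barcodes, and Top2a 12.6 and 9.59 CPM. In the main population Mki67 had 5 and 4 UMIs and Top2a 8 and 9 UMIs. Of the 450 and 202 barcodes with at least 10 histone UMIs, 9 (2.0%) and 1 (0.495%) had a Mki67 or Top2a UMI, against 1.53% and 1.19% of barcodes with fewer histone UMIs. The former were deeper, so these shares do not compare barcodes of like depth. Mki67 and Top2a summed to 9.29 CPM (4.95 to 15.9) in them, against 22.9 CPM (18.5 to 28.1) in the others, in the shBicd2-labelled library. In the scramble-labelled library the sums were 1.42 CPM, from 1 UMI, against 15.2 CPM. Cluster 4, with the most histone RNA, had 6 such barcodes of 630 (0.952%, 0.350% to 2.06%).

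The histone level in Mki67 or Top2a barcodes was 3585 CPM (3214 to 3988) in the shBicd2-labelled library, against 3042 CPM in all others, a ratio of 1.18 (1.06 to 1.31). In the scramble-labelled library it was 1631 CPM (1264 to 2071), against 1305 CPM, a ratio of 1.25 (0.967 to 1.59). Both values rested on a single barcode: without it the level was 2656 CPM in the shBicd2-labelled library and 572 CPM in the scramble-labelled library, below the other barcodes in each. As a mean share per barcode the ratio lay further above 1, at 2.17 and 2.16. That mean still holds the same single barcode of each library, with 90 of 688 and 44 of 863 UMIs from members. Such a shallow barcode weighs more in a mean than in a sum, and the mean was not taken without it. With at least 2 UMIs of the G2 and M phase list, which Hmgb2 leads, in place of Mki67 or Top2a, the ratio was 2.0 (1.88 to 2.11) and 1.19 (0.896 to 1.54). The direction of the ratio thus depends on how it is taken. A histone UMI was found in 59.6% of Mki67 or Top2a barcodes, against 60.9% of others, in the shBicd2-labelled library and in 35.5%, against 47.6%, in the scramble-labelled library. Within the main population the ratio was 1.36 (1.18 to 1.56) and 0.510 (0.297 to 0.817), and without 1 barcode the level there was 3196 CPM, against 3285 CPM, in the shBicd2-labelled library.

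**Figure D4:**
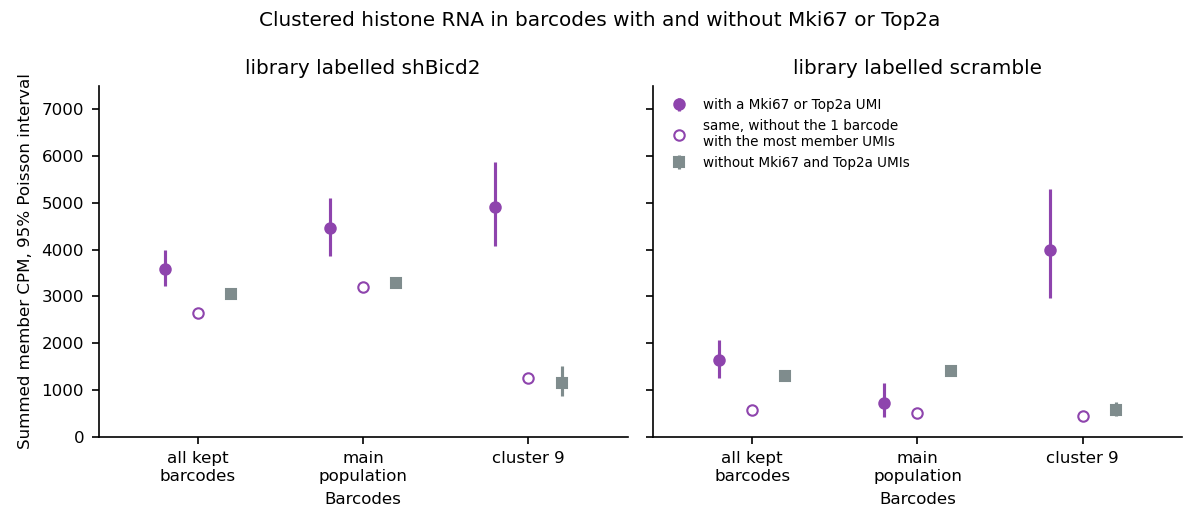
Summed CPM of the clustered histone genes in barcodes with a Mki67 or Top2a UMI (filled circles), in the same without the 1 barcode with the most member UMIs (open circles), and in barcodes with neither (squares), for all kept barcodes, the main population and cluster 9 of each library, with 95% Poisson intervals. Leaving out 1 barcode takes cluster 9 to 1263 CPM in the shBicd2-labelled library and to 439 CPM in the scramble-labelled library.

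Cluster 9 held 20 and 14 of the Mki67 or Top2a barcodes. It was left unnamed because B cell, erythroid and proliferation markers led it together, a rule added after the data were seen. There the level was 4908 CPM with Mki67 or Top2a, against 1156 CPM without, in the shBicd2-labelled library, and 4003 against 571 CPM in the scramble-labelled library. In the shBicd2-labelled library, 1 barcode with 3 Mki67 or Top2a UMIs and no EGFP UMI had 90 histone UMIs of 32 genes among its 688 UMIs. In the scramble-labelled library, 1 barcode with 1 such UMI and no EGFP UMI had 44 histone UMIs of 25 genes among its 863 UMIs. Without these the levels were 1263 and 439 CPM, so most of the cluster's difference came from 1 barcode in each library.

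The make-up of histone RNA in those barcodes was not that of cluster 4. In Mki67 or Top2a barcodes of cluster 9, members that ran past the stem-loop held 30.8% and 34.7% of 120 and 49 UMIs, against 58.3% in cluster 4. Members that ended near it held 32.5% and 32.7%, against 21.8%, and those without its letters 36.7% and 32.7%, against 19.97%. Hist1h2br with 11, Hist1h1d with 9, Hist2h2aa1 and Hist1h1e with 8 and Hist1h1b with 7 UMIs led there in the shBicd2-labelled library, and Hist1h1b and Hist1h2br with 6 each in the scramble-labelled library. In cluster 4 Hist1h1e, Hist1h2bc, Hist1h4i and Hist1h4c led. With 1 barcode behind most UMIs in each library, this is a description of those barcodes.

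Other genes of histone metabolism and the cell cycle were read from lists, described here without a test. Of the 11 replication-independent histone genes, which encode variants made outside S phase as well, 10 had at least 10 UMIs, 5 of these were more than 1.5-fold higher in the shBicd2-labelled library and none lower, beside 26.2% and 12.0% of all features. Their sum was 8847 against 5831 CPM, a ratio of 1.52 (1.5 to 1.54), and it was mostly H3f3b, which encodes the variant H3.3, at 8318 against 5496 CPM. H1f0, the linker variant of resting cells, had 215 against 71.6 CPM, a ratio of 3.00 (2.66 to 3.39), close to that of the clustered linker genes. H2afy had 103 against 107 CPM and H2afj 87.2 against 59.4 CPM. With EGFP, H3f3b had 16367 against 4486 CPM in the shBicd2-labelled library and 15037 against 4910 CPM in the scramble-labelled library, so this polyadenylated, replication-independent histone RNA differed with EGFP as the clustered genes did. H2afy had 77.3 against 110 CPM with EGFP in the shBicd2-labelled library, so the difference was not shared by every histone gene.

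Genes of S phase differed less between the libraries than the clustered histones did, with intervals of counting error only that do not overlap. The 27 genes of DNA replication summed to 241 against 225 CPM, a ratio of 1.07 (0.988 to 1.16), and of the 25 with at least 10 UMIs 5 were more than 1.5-fold higher and 6 lower, beside 26.2% and 12.0% of all features. With EGFP the ratio was 0.943 (0.834 to 1.07) and 0.995 (0.796 to 1.23). These values rest on Ung, a repair enzyme gene that was higher with EGFP (125 against 92.2 CPM in the shBicd2-labelled library and 153 against 102 CPM in the scramble-labelled library). Without Ung, a setting chosen after the data were seen, the other 26 genes were lower with EGFP, at ratios of 0.685 (0.573 to 0.816) and 0.556 (0.365 to 0.814), and their ratio between the libraries was 1.15 (1.03 to 1.28). Between the libraries Ung led the list, at 99.4 against 102 CPM, followed by the helicase gene Mcm7 at 34.4 against 23.9 CPM, Rfc2 at 18.5 against 19.0 CPM and Rrm2, for ribonucleotide reductase, at 14.8 against 8.36 CPM. In barcodes with at least 10 histone UMIs the list had 211 CPM (188 to 236), against 251 CPM (236 to 267) in the others, in the shBicd2-labelled library, and 233 against 223 CPM in the scramble-labelled library.

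The G2 and M phase list was higher in the shBicd2-labelled library, 106 against 59.0 CPM, a ratio of 1.80 (1.56 to 2.08), with 10 of 13 counted genes past 1.5-fold higher and 1 lower, beside 26.2% and 12.0% of all features. It was led by Hmgb2, a chromatin protein gene that resting cells also express, at 58.4 against 27.9 CPM, followed by Top2a, Mki67 and Birc5, the last at 3.69 against 3.88 CPM. With EGFP the list had a ratio of 1.87 (1.51 to 2.33) in the shBicd2-labelled library and 0.495 (0.210 to 1.0) in the scramble-labelled library. Hmgb2 alone had 84.3 CPM with EGFP against 38.8 CPM without in the shBicd2-labelled library, of 100 against 53.4 CPM for the list. The ratio of 1.87 therefore rests mostly on Hmgb2, and the list was not summed without that gene. In barcodes with at least 10 histone UMIs the whole list, Hmgb2 included, had 140 CPM (121 to 161), against 94.2 CPM (84.9 to 104) in the others, in the shBicd2-labelled library. In the scramble-labelled library it had 34.1 against 63.1 CPM, so the libraries went opposite ways.

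Genes listed for histone gene transcription and for processing or decay of histone RNA summed to 300 against 322 CPM, a ratio of 0.931 (0.868 to 0.998). With EGFP they were lower, at 0.627 (0.556 to 0.705) and 0.721 (0.581 to 0.885). Slbp, which encodes the stem-loop binding protein, had 44.7 against 48.96 CPM between the libraries, and with EGFP 23.9 against 56.4 CPM in the shBicd2-labelled library and 34.9 against 47.5 CPM in the scramble-labelled library. Sympk had 61.7 against 61.8 CPM, Upf1 62.3 against 51.4 CPM and Casp8ap2 32.3 against 41.2 CPM between the libraries. Histone chaperones, which carry histones to DNA, had a ratio of 0.981 (0.930 to 1.03), with Atrx at 277 against 312 CPM, Ubn1 at 111 against 102 CPM, Cabin1 at 57.8 against 39.8 CPM and Daxx at 48.6 against 43.2 CPM.

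**Figure D5:**
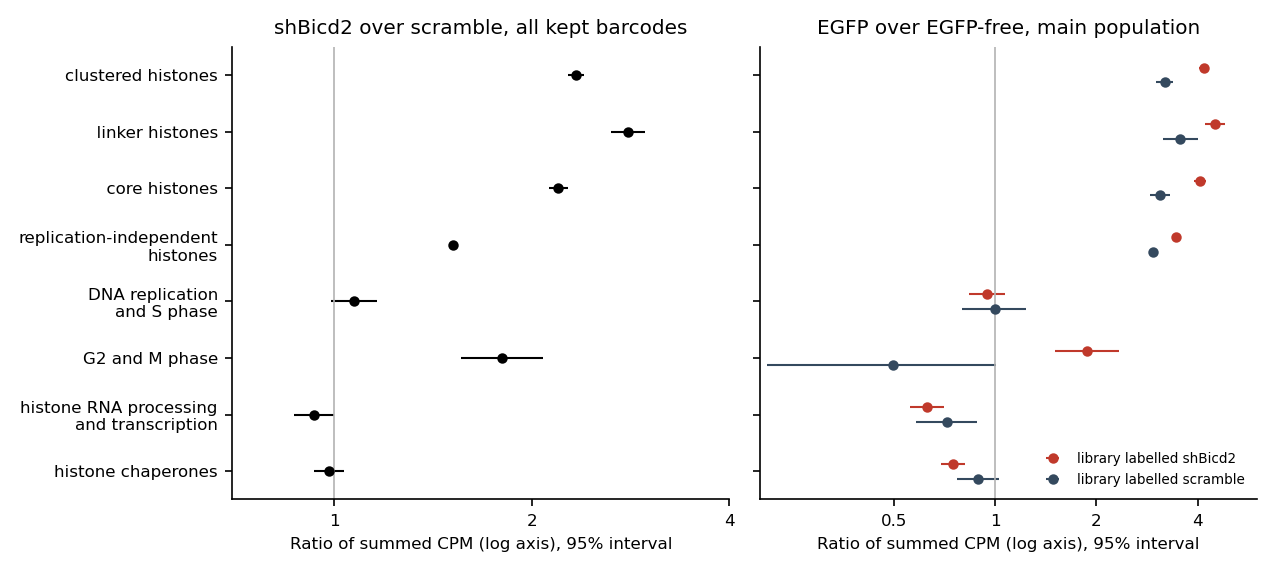
Ratio of summed CPM, on a log axis with 95% intervals, for the clustered histone genes and 5 other gene lists, with linker and core genes also shown apart. The left panel gives the shBicd2-labelled library over the scramble-labelled library, and the right panel EGFP over EGFP-free barcodes of the main population of each library. The clustered histones lie at 2.33 on the left and at 4.18 and 3.19 on the right, the S phase list at 1.07, 0.943 and 0.995.

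Across the 17 groups of barcodes, the features of 9827 whose log2 level was most like the summed clustered histones included Btg1 (Pearson r 0.938), H3f3b (0.920), Sephs2, Ifrd1, Jun, Mxi1, Snai2, Gabarapl1 and Jund (0.897). EGFP had an r of 0.725, Hspa1b 0.729, H1f0 0.739 and Top2a 0.127. The groups share libraries and differ in depth, so these values rank features and carry no p.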

How the data were processed

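The deposited values are UMI counts per feature and barcode, with no normalization by the authors. Per the file headers the counts were written by Cell Ranger 6.1.2. Seurat 4.0.3, Cell Ranger 6.0.1 and the mm10 build appear per the submitters' processing notes. The 10x 3' kit version 3.1 was used per the labels' protocols. Intron counting and doublet removal before deposit are not given in the sources used here.

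The members and lists were chosen with earlier results of these data known. Barcodes needed 200 genes and no more than 25% mitochondrial UMIs. Those with the highest Scrublet scores were removed as doublets, at 0.8% per 1000 barcodes (73 and 62). Clusters (scanpy 1.11.5, leidenalg 0.10.2, scikit-learn 1.9.0) used 2000 variable genes without the members and EGFP, 30 components, 15 neighbours and resolution 1.0. A name needed 3 raised markers and 40% of a list. Cluster 9, which the naming rule would have named, was kept apart after its markers were seen.

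UMIs were summed and divided by all UMIs of the same barcodes to give CPM (Python 3.11.15, numpy 2.4.6, scipy 1.17.1, pandas 2.3.3). For EGFP ratios, EGFP UMIs were left out of the total. Intervals are exact Poisson, Clopper-Pearson or conditional binomial, and the calculation was tested on simulated counts. TMM factors came from edgeR 4.0.16 in R 4.3.3 and figures from matplotlib 3.10.9. Members with at least 50 UMIs are named, as are, from each list, the 4 with the most UMIs. Coordinates and transcripts are from GENCODE M21 (GRCm38), matched by gene ID for 66 of 66 members, which may not be the annotation the counts were made with. Promoters are from RefSeq. Alternatives are in the closing section. Some genes that the naming rules would have listed are not reported here.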

Additional observations from a re-analysis of the deposited data

How the results depend on the processing

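The ratio of 2.33 for all members was 1.31 without EGFP barcodes, 2.08 with TMM factors, 2.26 with totals without Malat1, Neat1 and mitochondrial genes, 2.22 as a mean share per barcode and 2.24 without Hist1h1e. Linker genes had 1.53 without EGFP barcodes, 2.50 with TMM factors and 2.61 without Hist1h1e, and core genes 1.25 without EGFP barcodes, 1.96 with TMM factors and 2.07 as a mean share. Chosen after seeing the data, the main population without clusters 2 and 4 gave 1.80, 2.08 and 1.72 for all, linker and core genes, and cluster 2 alone gave 1.99, 2.26 and 1.91. The linker share in the shBicd2-labelled library was 25.7% without EGFP barcodes and 28.2% after thinning to 1000 UMIs.

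The EGFP ratio in the shBicd2-labelled library was 3.75 after thinning, 4.53 as a mean share per barcode and 5.65 with at least 2 EGFP UMIs, and 1.37 in cluster 2, 1.37 in cluster 4 and 1.20 without both. In the scramble-labelled library it was 3.72 as a mean share, 3.98 with at least 2 EGFP UMIs, 1.27 in cluster 2 and 1.19 without clusters 2 and 4. The ratio of Mki67 or Top2a barcodes turned below 1 in the shBicd2-labelled library after thinning (0.636) and without 1 barcode (0.873), and was 2.17 as a mean share, 1.36 in the main population and 2.0 with at least 2 UMIs of the G2 and M phase list. Its value in the scramble-labelled library was 0.363 after thinning, 2.16 as a mean share, 0.510 in the main population and 0.438 without 1 barcode. Thinning leaves out barcodes under 1000 UMIs, among them the barcode of each library left out in the setting without 1 barcode (688 and 863 UMIs). The cause of these shifts was otherwise not tested. Another 52 values stayed within the 95% interval of the value reported or, for counts of genes, within 1.5 times of it. No paired analysis was possible because each group has 1 library.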
